A study of Homo sapiens with 4 samples.

Results

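The 9 genes described here encode intermediate filament proteins and nuclear lamins: VIM, NES, NEFL, NEFM, KRT8, KRT18, LMNA, LMNB1 and LMNB2. They were taken by name from the deposited peak tables, and a gene without a row counted as having no peak. They are 9 of 20056 annotated protein-coding genes. They held 15 of the 4326 peaks of immunoprecipitation (IP) replicate 1 and 19 of the 4862 peaks of IP replicate 2. The samples were 2 libraries of poly(A) RNA immunoprecipitated with an anti-N7-methylguanosine (m7G) antibody and 2 input libraries without antibody. All 4 came from U2OS, an established human osteosarcoma line, cultured with no treatment, per the labels. For each peak an IP table lists its enrichment (fold over input) with a p-value and its false discovery rate, all of them the authors' own values. Nothing in the labels tells whether the replicates were separate cultures, so their spread may be technical.

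Intermediate filaments are rope-like polymers of coiled-coil proteins that give cells mechanical strength. Vimentin (VIM) is the main filament of mesenchymal cells, nestin (NES) is typical of progenitor cells, neurofilament light and medium chains (NEFL and NEFM) build the axon's filaments, and keratins 8 and 18 (KRT8 and KRT18) pair in simple epithelia. Lamins A and C (both from LMNA), B1 (LMNB1) and B2 (LMNB2) form the meshwork under the inner nuclear membrane. N7-methylguanosine is the cap at the 5′ end of mRNA and has also been mapped at internal positions of mRNA. The fold of a peak compares IP with input in bulk libraries, so a mark on fewer cells' mRNA and less of it per cell cannot be told apart.

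The cap is joined to the first transcribed base, so the sequences around the annotated starts are shown for the members whose peaks are placed against them below. They are RefSeq sequences of GRCh38.p14, with 50 bases before the start in lower case and the first 50 transcribed bases in capitals.
VIM, chromosome 10, plus strand, 17228191 to 17228290: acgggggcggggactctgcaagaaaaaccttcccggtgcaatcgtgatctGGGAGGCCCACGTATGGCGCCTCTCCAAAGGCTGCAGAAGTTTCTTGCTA
NES, chromosome 1, minus strand, 156677358 to 156677457: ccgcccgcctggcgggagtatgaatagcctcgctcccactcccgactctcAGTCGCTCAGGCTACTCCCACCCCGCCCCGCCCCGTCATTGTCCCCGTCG
LMNA, chromosome 1, plus strand, 156082831 to 156082930: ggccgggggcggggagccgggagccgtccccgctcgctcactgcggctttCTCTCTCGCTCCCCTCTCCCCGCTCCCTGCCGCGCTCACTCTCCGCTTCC
LMNB1, chromosome 5, plus strand, 126777086 to 126777185: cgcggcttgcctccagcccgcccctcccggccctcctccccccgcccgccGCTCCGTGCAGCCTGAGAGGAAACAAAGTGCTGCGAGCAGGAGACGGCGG
LMNB2, chromosome 19, minus strand, 2456910 to 2457009: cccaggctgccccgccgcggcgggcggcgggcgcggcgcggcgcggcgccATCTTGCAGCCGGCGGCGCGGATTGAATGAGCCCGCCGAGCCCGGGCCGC
No peak of either replicate touched any of these stretches. The nearest peak block lay 226 nt from the VIM start, 5955 nt from the NES start, 7680 nt from this LMNA start, 84 nt from this LMNB1 start and 12420 nt from the LMNB2 start. LMNA and LMNB1 each have further listed starts, whose stretches held no peak either. The first 50 transcribed bases shown were 58% G or C for VIM, 72% for NES, 72% for LMNA, 64% for LMNB1 and 74% for LMNB2, against a median of 64% over 22199 such windows of protein-coding genes. The share differed between starts of a gene: it was 54% and 52% at the other LMNA starts and 70% at the other LMNB1 start. KRT8, KRT18, NEFL and NEFM have no sequence shown.

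Peaks at the same place in both replicates, meaning an overlap of at least 1 bp on the same strand, were found on 6 of the 9 members: VIM, NES, NEFL, KRT18, LMNA and LMNB2. A shared peak was present on 10.5% of all annotated protein-coding genes. In replicate 1 a peak was listed on 6 members (15.9% of all protein-coding genes had one) and in replicate 2 on 7 (17.4%). LMNB1 had peaks in replicate 2 alone. NEFM and KRT8 had none in either table. When both replicates had to reach 2-fold, 2 members kept a shared peak, NES and LMNB2, and 8.82% of all protein-coding genes did. These tables carry no measure of expression, and an mRNA that is absent or too sparse cannot yield a peak, so the part of expression level in these counts was not tested.

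The 6 members carried 14 mutually best shared peaks: LMNA and LMNB2 had 4 each, VIM and NES had 2 each, and NEFL and KRT18 had 1 each. At least 4 shared peaks were present on 0.12% of protein-coding genes (24 genes), and at least 2 on 2.05%. With 50% reciprocal overlap the members had 8 shared peaks. All 4 LMNB2 pairs met that rule, but of the LMNA pairs only the first did. The overlap covered 40.3%, 27.4% and 42.9% of the replicate 2 peak in the later LMNA pairs. The folds were mostly low. Taking the lower of both replicates, the members' 14 shared peaks had a median of 1.895-fold, against 3.53-fold over all 2642 shared peaks, and 12 of the 14 lay below that overall median. Only 2 of the 14, both on NES, were at 4-fold or more in each replicate, while 42.8% of all shared peaks were, and 5.16% of protein-coding genes had such a peak. Among all peaks of a table, shared or not, the members' median was 2.06-fold in replicate 1 and 1.91-fold in replicate 2, against 4.27 and 3.48 for the whole tables.

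**Figure D1:**
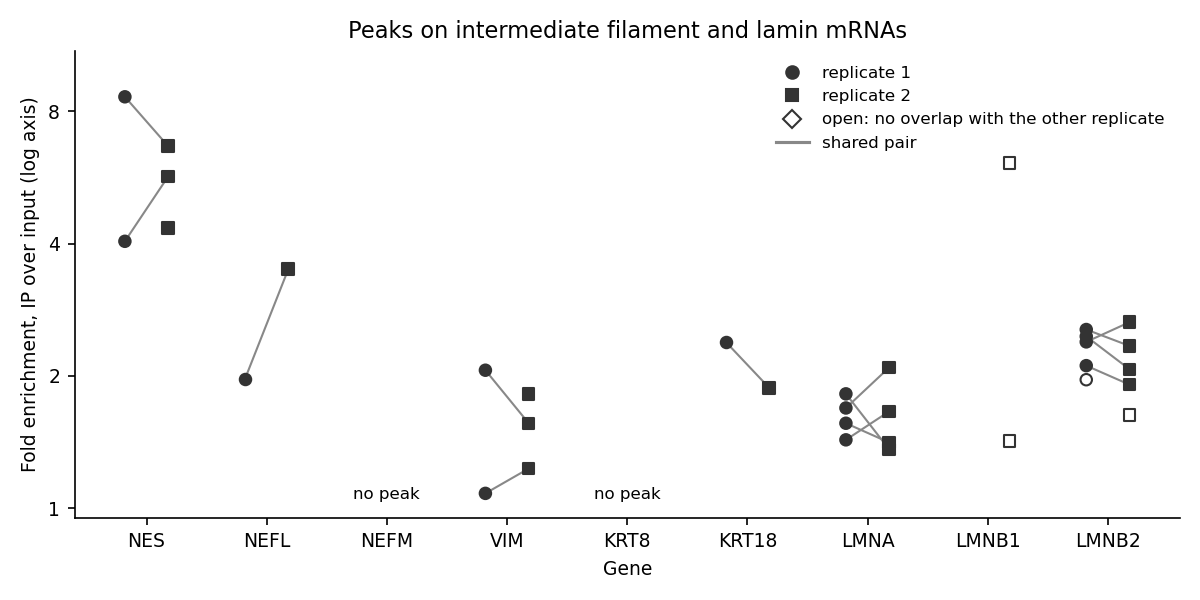
Fold enrichment of every peak on the 9 genes (y axis, IP over input, log axis) by gene (x axis), with circles for replicate 1, squares for replicate 2, open symbols for peaks that overlap none of the other replicate, and lines joining mutually best shared peaks. NES peaks run from 4.05 to 8.64, while the shared peaks of the other genes stay at or below 3.50 and an unshared LMNB1 peak stands at 6.11.

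NES had the strongest enrichment. The peak on chromosome 1 from 156669779 to 156671452 (GRCh38, minus strand) had a fold of 8.64 in replicate 1, and its best partner in replicate 2, from 156669839 to 156670496, had 6.67. In replicate 2 the rest of that stretch was listed as a separate peak from 156670735 to 156671332, with a fold of 4.34. The replicate 1 peak was a single block of 1674 nt, longer than 99.9% of the peaks in its table, whose median length was 151 nt. A second NES peak lay toward the gene end, from 156669181 to 156669540 in replicate 1 and from 156669211 to 156669570 in replicate 2, with folds of 4.05 and 5.69. Its middle was 613 nt from the annotated gene end. The middles of all 5 NES peaks lay from 73.7% to 93.1% of the way along the annotated span. Most of nestin's coding sequence is in its long last exon. The lowest NES fold (4.05) was above the highest fold of any other member with a shared peak (3.50, NEFL in replicate 2). Of the nucleotides in NES peaks, 1586 were in peaks of both replicates, 78.0% of the replicate 1 total and 98.1% of the replicate 2 total.

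VIM combined a low fold with a very small p-value. In replicate 1 a peak of 4 blocks ran on chromosome 10 from 17228467 to 17233617 (plus strand), with a fold of 2.06 and a log10 p of -157. By p it ranked 20 among the 4326 peaks of that table, while by fold it stood above only 14.8% of them. In replicate 2 the same stretch was listed as 2 peaks. The first, from 17228467 to 17229573, had a fold of 1.82 and a log10 p of -90.4, and the second, from 17229633 to 17233617, had 1.56 and -62.9. The blocks matched closely: the first was 58 nt long in both replicates with the same ends, and blocks of 61 nt and 31 nt further along also had the same ends. A weaker VIM peak lay 3′ of these, from 17235201 to 17235290 in replicate 1 (1.08-fold) and from 17234792 to 17235865 in replicate 2 (1.23-fold). That 1.08 was the lowest fold of any member peak, and the lowest in its whole table was 1.06. The annotated span of VIM-AS1, an antisense gene on the minus strand, also covers the first stretch, and the tables place the peaks on the plus strand.

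**Figure D2:**
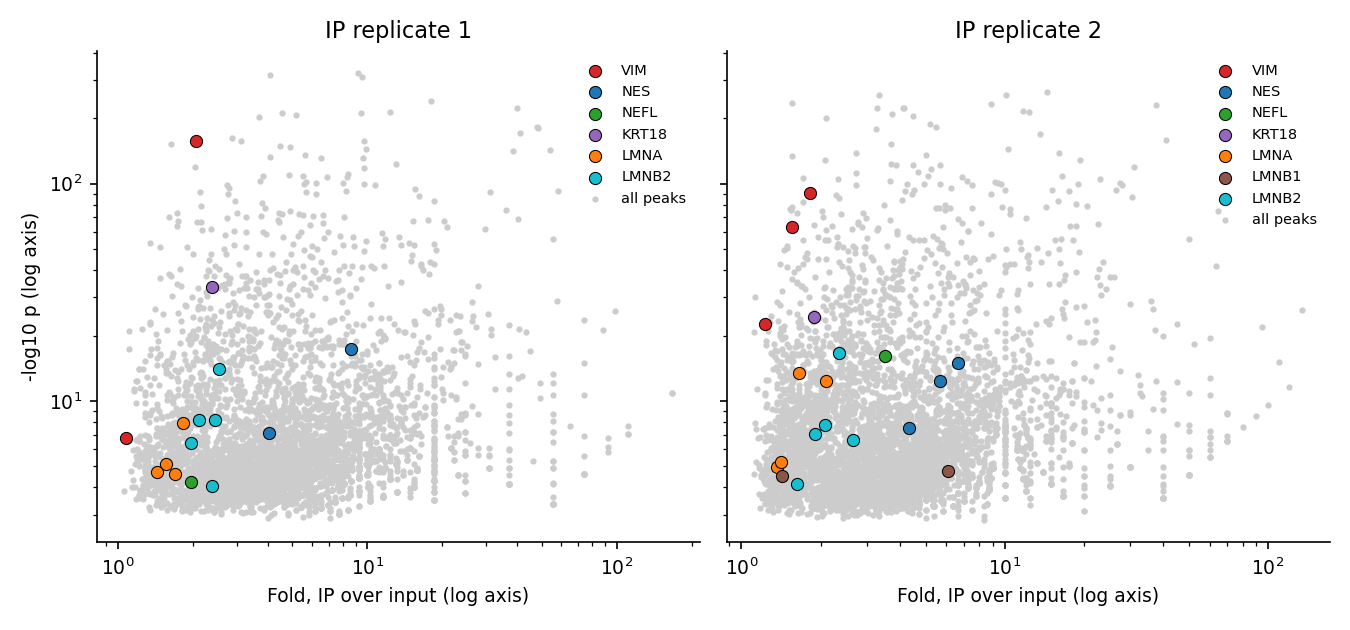
Fold over input (x axis, log axis) against -log10 p (y axis, log axis) for every peak of replicate 1 (left) and replicate 2 (right), with member peaks coloured by gene and all peaks in grey; 5 and 8 peaks whose p is listed as 0 are not drawn. The VIM peaks of the 5′ stretch (2.06, 1.82 and 1.56) stand high at low folds, and NES peaks stand at higher folds with moderate p.

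The other cytoplasmic filament genes had a single shared peak or none. KRT18 had a 326 nt peak in each replicate on chromosome 12, from 52949194 to 52949519 with a fold of 2.39 in replicate 1 and from 52949253 to 52949578 with 1.88 in replicate 2. Its log10 p was -33.4 and -24.3, and 81.9% of each peak lay in the other. The annotated span of KRT8 also covers this place. KRT8 is on the minus strand and the peak on the plus strand, so it was left with KRT18, and the minus strand of KRT8 had no peak. NEFL had a peak of 2 blocks on chromosome 8, from 24952905 to 24953518 with a fold of 1.97 in replicate 1 and from 24952816 to 24953578 with 3.50 in replicate 2. The replicate 1 blocks covered 91 nt and lay wholly within the 240 nt of replicate 2. For this NEFL peak the log10 p was -4.22 in replicate 1 and -16.1 in replicate 2. NEFM, the partner of NEFL in neurofilaments, had no peak.

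LMNA had 4 peaks in each replicate and each overlapped a peak of the other, with folds of 1.43 to 1.82 in replicate 1 and 1.36 to 2.09 in replicate 2. The first pair, near chromosome 1 position 156114721, had 1.82 and 1.36, and the second, near 156115107, had 1.56 and 1.41. The pair from 156134888 had 1.43 and 1.66, and the pair ending at 156137807 in both replicates had 1.69 and 2.09. The earlier pairs were thus higher in replicate 1 and the later ones higher in replicate 2, and the later peaks were also longer in replicate 2. They covered 90 nt and 179 nt in replicate 1, and 328 nt and 417 nt in replicate 2. The fold differences of the 4 pairs were factors of 1.11 to 1.34, within the usual spread between replicates. From 27.5% to 63.5% of all shared pairs had a smaller difference. The order along the gene was not tested. The first replicate 1 peak also listed a 22 nt block at 156090561, far 5′ of its main block of 217 nt, and this block was not listed in replicate 2.

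LMNB2 had 5 peaks in each replicate, and 4 were shared. Among protein-coding genes with a peak, 99.2% had fewer in replicate 1 and 99.0% had fewer in replicate 2. Their folds were narrow in range. The pair near chromosome 19 position 2430172 had 2.39 and 2.65, the pair from 2430951 had 2.55 and 2.34, the pair ending at 2438252 had 2.46 and 2.07, and the pair starting at 2438488 had 2.11 and 1.91. The unshared LMNB2 peaks were at 2430472 to 2430651 in replicate 1 (1.96-fold) and at 2434363 to 2434483 in replicate 2 (1.63-fold). LMNB2 peaks spread over much of the gene, from the pair at 2438488, whose middle was 12510 nt from the annotated start, to the pair at 2430172, at 2036 nt from the annotated end.

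LMNB1 differed from the other lamins in these tables: it had no row in replicate 1 and 2 peaks in replicate 2. A peak in replicate 2 with none in replicate 1 was seen on 5.72% of protein-coding genes. The LMNB1 peak at 126777220 to 126777280 on chromosome 5 had a fold of 1.42, and its block began 84 nt past the LMNB1 start shown above. The other, 126836871 to 126837020, had 6.11 and ended on the last base of the annotated gene. Their log10 p were -4.51 and -4.76. Of the 1003 replicate 2 peaks with a log10 p from -5 to -4, 32.3% overlapped a peak of replicate 1, so most peaks of this strength lacked a partner. Some peaks of the other lamins were in this range too. They were LMNA at -4.69 and -4.62 (replicate 1) and -4.97 (replicate 2), and LMNB2 at -4.06 (replicate 1) and -4.15 (replicate 2). All but the last overlapped a peak of the other replicate. The remaining LMNA and LMNB2 peaks had a smaller p. A test of the difference between LMNB1 and the other lamins was not made.

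**Figure D3:**
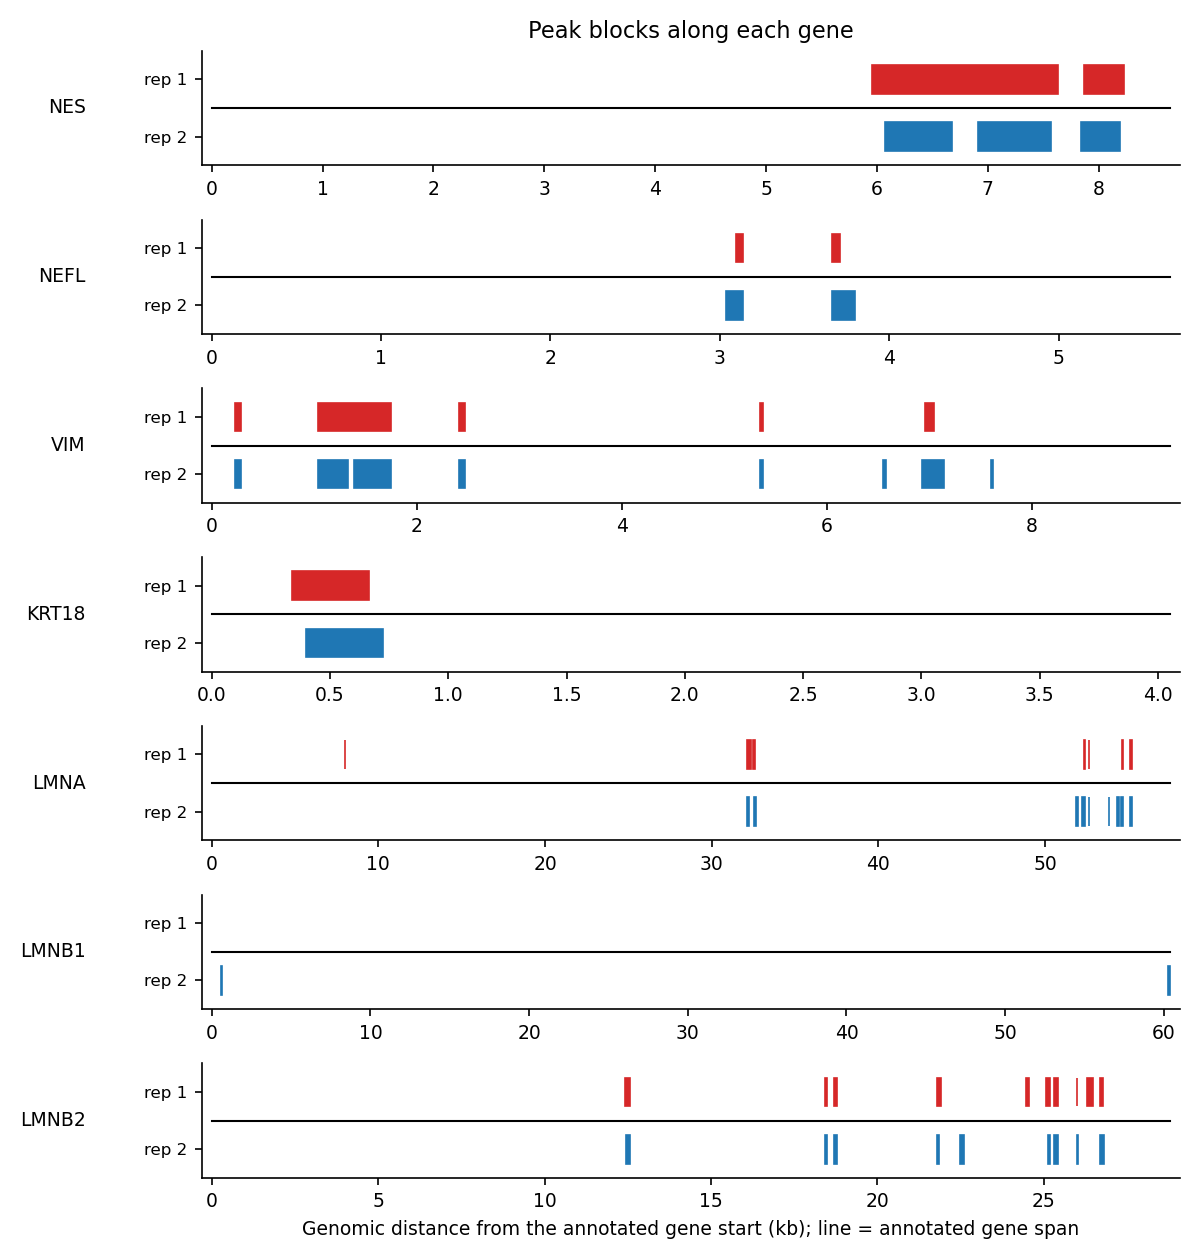
Blocks of every peak of replicate 1 (red, upper row) and replicate 2 (blue, lower row) along the 7 members with a peak, with genomic distance from the annotated gene start in kb on the x axis and the annotated span as a black line. Blocks of VIM and LMNB2 recur at the same places, NES blocks lie in the last part of the gene, and LMNB1 has blocks in replicate 2 alone.

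The middle of none of the 14 shared peaks lay within 200 nt of the annotated gene start, while 22.4% of all 2639 placed shared peaks did. The closest were KRT18, at 531 nt, and the first VIM pair, at 1407 nt. The VIM peak's first block began closer, 226 nt past the start. Only the NES peak at the gene end lay within 1000 nt of the annotated end, against 15.3% of all placed shared peaks. Distances are genomic and include introns. No exon map was used here, so peaks could not be placed in exons or untranslated regions.

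Gaps inside a peak are places where its blocks jump over sequence. Over the members, 24 block ends faced such a gap in replicate 1 and 30 in replicate 2, and 20 were identical to the base in both. That is 83.3% of the replicate 1 ends and 66.7% of the replicate 2 ends, against 82.2% and 72.8% over all genes with gaps in both tables. For VIM all 6 gap ends of replicate 1 recurred (60% of its replicate 2 ends), for LMNB2 8 of 10 and for NEFL both, while for LMNA 4 of 6 recurred, 40% of its replicate 2 ends. NES and KRT18 peaks had no gap.

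Between replicates, the folds of the members' shared peaks differed about as much as those of all shared peaks. In log2 units the median gap, sign ignored, was 0.28 over the members' 14 pairs and 0.30 over all 2642, factors of 1.21 and 1.23. All 14 member pairs differed by less than the factor of 2.42 that held 95% of all pairs. The lowest listed folds were 1.06 in replicate 1 and 1.12 in replicate 2. Low member folds thus had little room to be lower in the other replicate, which limits this comparison. The largest gap was at NEFL, 0.83 on the log2 scale, higher in replicate 2, and 87.1% of all pairs had a smaller one. Of the members' pairs, 6 of 14 were higher in replicate 2, against 44% of all pairs. By the lower fold of the strongest shared peak, the order was NES (6.67), LMNB2 (2.39), NEFL (1.97), KRT18 (1.88), LMNA (1.69) and VIM (1.56). The NES and LMNB2 values differed by more than the factor of 2.42, and no neighbours below them differed by as much. That factor describes the same peak between replicates, so it gives no error for a comparison between genes. With 50% reciprocal overlap the strongest shared NES peak was 4.05, which is within that factor of LMNB2. The place of VIM rests on its best partner in replicate 2 (1.56). The other replicate 2 peak of that stretch had 1.82, above the 1.69 of LMNA. This order was not tested.

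**Figure D4:**
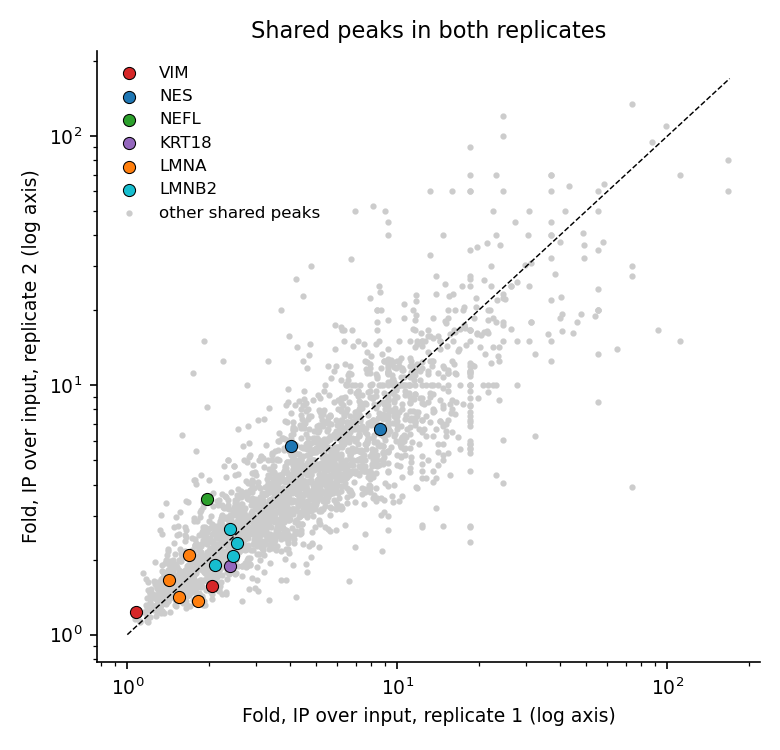
Fold over input in replicate 1 (x axis) against replicate 2 (y axis), both log axes, for the members' 14 shared peaks, coloured by gene, and all other shared peaks in grey; the dashed line marks equal folds. The members lie close to the line, at the low end apart from NES.

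The protein-coding genes whose strongest shared peak had the most similar pair of log2 folds, over the 2 replicates, were MFSD12, CTXN1 and NPLOC4 for NES and TESK1, ZFAND3 and INTS1 for LMNB2. For KRT18 they included AGRN and SPTAN1, and for LMNA they were SFN, GNAS and POLR2F. For VIM they were USB1, RPLP1 and RPL30, and for NEFL TUSC3, WIPI2 and CETN2. The distances ran from 0.02 (TESK1) to 0.15 (CETN2) on the log2 scale, within the spread between replicates.

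Other genes of the class were counted in lists. Of 53 other keratins, 3 had a shared peak (5.66%, against 10.5% of all protein-coding genes): KRT10, a keratin of differentiating epidermis (5.48 and 6.56), KRT81, a hair keratin (2.94 and 2.39), and KRT17, a keratin of injured or activated epithelium (1.45 and 1.42). KRT17 and KRT81 have close paralogs and pseudogenes, so reads may be split among copies and their values are uncertain. Such splitting was not checked for the members either, KRT8 and KRT18 among them. Of 9 other intermediate filament genes, among them DES, GFAP and NEFH, 0 had a shared peak and SYNC, syncoilin, had 1 peak in replicate 2 (4-fold).

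Of 17 genes linked to the lamina or the nuclear envelope, 5 had a shared peak (29.4%, against 10.5% of all protein-coding genes). They were LEMD2 (6.53 and 7.14), LEMD3 (6.67 and 5.25), TOR1AIP1, the lamina-associated LAP1 (5.92 and 3.85), SUN2, which links lamins to the cytoskeleton (4.01 and 3.12), and BANF1, a DNA-bridging protein (1.64 and 1.68). The LEMD2 peak lay at the annotated start, with its middle 121 nt inside. EMD, emerin, and SYNE3 had a peak in replicate 1 alone, and LBR, TMPO, SUN1 and SYNE1 were among the 10 with none. Of 5 enzymes that process lamins, 1 had a shared peak (20%, against the same 10.5%): ZMPSTE24, the protease that matures prelamin A (18.5 and 10). That peak lay at the annotated start, with its middle at -51 nt, before the start. FNTA and ICMT had a peak in replicate 1 alone. Of 16 linkers and desmosome genes, 2 had a shared peak (12.5%, close to the 10.5% of all protein-coding genes): PLEC, plectin, which ties filaments to other structures (8.10 and 5.17, with 3 shared peaks), and PKP4, a plakophilin (22.2 and 30).

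Markers of cell identity were checked in the same way. Of 11 mesenchymal and osteoblast markers, 3 had a shared peak (27.3%, against 10.5% of all protein-coding genes): COL1A1 (4.60 and 6.38), SPARC (2.67 and 1.72) and FN1 (1.62 and 1.71). THY1 had peaks in replicate 2 alone, and COL1A2, RUNX2, ALPL, BGLAP, SPP1, IBSP and CDH11 had none. A shared peak was found on 1 of 7 epithelial markers (CLDN4, 3.57 and 3.77), 0 of 7 neuronal markers and 0 of 5 haematopoietic markers. Among the neuronal markers, TUBB3 had a peak in replicate 1 alone (1.88-fold) and SYP in replicate 2 alone (4.35-fold). A missing peak does not show that a gene was not expressed.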

How the data were processed

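Poly(A) RNA of U2OS cells was sequenced before and after anti-m7G immunoprecipitation, with a stranded kit, per the labels' protocols. The submitters' processing notes name STAR and GRCh38. For the peak caller and the scaling of folds, nothing is given in the sources used here. The authors deposited 1 peak table for each IP replicate, so peaks were called per replicate. Per the file headers, each peak has a fold enrichment, a linear ratio of IP over input, a p-value, and the log10 of p and of the false discovery rate, treated as a score. Listed false discovery rates end at 0.049 (replicate 1) and 0.0479 (replicate 2), and weaker peaks are not listed. Without counts the depth is unknown, and a single fold has no interval.

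Peaks were matched between tables by overlap of their blocks (at least 1 bp, same strand), and mutually best overlaps were kept as shared peaks. The matching was tested on simulated peaks of a single block, each with at most 1 possible partner. Split peaks and peaks of several blocks were not simulated. Gene names were matched to the RefSeq table of GRCh38.p14 by symbol or synonym within 2000 nt. A peak's middle is the middle base of its joined blocks, and coordinates are 1-based. Counts stand beside the share of all 20056 protein-coding genes, and no test between genes or groups was made. Every member is named, with each list gene that had a shared peak and the 3 genes nearest to each member in log2 folds, of which 1 is not reported here. The remaining genes named, such as DES, SYNC and EMD, were chosen after their values were seen. The members and lists were chosen with earlier results of these data known. Python 3.11.15, pandas 2.3.3, numpy 2.4.6 and matplotlib 3.10.9 were used.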

Additional observations from a re-analysis of the deposited data

How the results depend on the processing

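Of 60 values under alternative settings, 47 stayed within 1.5 times the reported count or share, or for folds within the spread between replicates, and 13 moved. A gene that lost all its shared peaks under a setting gave no value there and is in neither count. These losses were VIM, NEFL, KRT18 and LMNA with a fold of at least 2, and NEFL with 50% reciprocal overlap. The 47 also include the gene-start settings, under which no peak was counted at all. The number of members with a shared peak (6) was 5 with 50% reciprocal overlap, which loses NEFL, and 2 when a fold of at least 2 was required in both replicates, which leaves NES and LMNB2. The share of all protein-coding genes at these settings was 8.67% and 8.82%. With a peak in replicate 1 alone as the rule the number of members was 6 (15.9% of all protein-coding genes), and with replicate 2 it was 7 (17.4%). The 14 shared peaks became 8 with 50% reciprocal overlap, 9 with midpoints within 100 nt and 5 with a fold of at least 2. Their median fold (1.895) was 2.39 with a fold of at least 2, a setting that removes low folds by construction, and 1.99 to 2.085 in the folds of either replicate alone. The strongest shared NES peak was 4.05 by 50% overlap or by midpoints, since replicate 2 lists its long peak as 2, the VIM one 1.08 by midpoints, and the LMNA one 1.36 by 50% overlap. No shared member peak had its middle within 500 nt of the gene start, or its nearest block edge within 200 nt. The closest block edges were 226 nt (VIM) and 339 nt (KRT18) from the start. With any listed start, no block edge lay within 200 nt either. KRT18 and NEFL have no listed start, so that last setting could not count them. The share of all protein-coding genes (10.5%) was 48.3% of the 4344 genes with a peak in either replicate, and 15.9% to 17.4% for a peak in either table alone. Of 100 other genes of the class, 11 had a shared peak, close to the 10.5% of all protein-coding genes. With a peak in replicate 2 alone as the rule they were 14 (17.4% of all genes), and with replicate 1 they were 19 (15.9%). Chosen after seeing the data were all settings for these other genes and for single genes' strongest peaks, the use of any listed start, and every setting for the share of all genes except the one over genes with a peak in either replicate. The overlap, significance and fold settings for the median fold and the gene starts were also chosen then. No paired analysis was possible because the tables hold peaks of IP over input and no values for single libraries. Depth is unknown, so a missing peak cannot be read as a missing mark.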

Other observations

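Several genes of the class had high folds in replicate 1 alone. DSG2, a desmosomal cadherin, had a 111-fold peak, KRT83, a hair keratin, 55.5-fold, SYNE3, a nesprin of the nuclear envelope, 37-fold, and FLG, which encodes the epidermal filament-aggregating protein filaggrin, had 3 peaks of 15.4-, 37- and 55.5-fold. KRT83 and the strongest FLG peak had a log10 p of only -3.37. Of the 11 peaks of at least 10-fold on the listed genes, 8 were whole multiples (within 0.05, or 0.5 from a fold of 100) of the most frequent such fold of their table, 18.5 in replicate 1 and 10 in replicate 2. ZMPSTE24 was at such a value in both replicates (18.5 and 10) and PKP4 in replicate 2 (30). Genes outside these lists held such folds too, among them WDTC1 (18.5) and CLK2 (55.5) in replicate 1. The share over all peaks of at least 10-fold was not counted, so 8 of 11 cannot be read as a trait of the listed genes. No peak of the 9 filament and lamin genes reached 10-fold.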
